A study of Mus musculus with 26 samples.

Results

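Whole retinas of rd10 mice given UNC1999 were compared with retinas of their own control group, 6 of the 26 RNA-seq libraries of the series. Samples were chosen by their titles, which place 3 control and 3 UNC1999 libraries in the same experiment, and the comparison was described across the 15775 of 37991 Ensembl genes whose counts passed a filter on low values. The rd10 mouse carries a mutation in Pde6b, the rod phosphodiesterase, on a B6 background, and every animal of both groups carried it. Mice received daily intraperitoneal injections from PN9, and retinas were collected at PN24. UNC1999 mice received 15 mg/kg, and control mice are labelled as saline-injected. According to the methods, UNC1999 was given in a mixture of DMSO, polyethylene glycol, polysorbate and saline, whereas the controls are called both saline and diluent, so drug and vehicle cannot be told apart if the controls had saline alone. The methods describe mice of both sexes, and the labels give no sex or animal for a library beyond its number as a biological replicate. The labels also raise the last digits of the strain name and of the drug name by 1 from each library to the next, and the titles, which name UNC1999 throughout, were followed.

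UNC1999 inhibits EZH2 and EZH1, the enzymes of Polycomb repressive complex 2 (PRC2) that methylate histone H3 at lysine 27, a mark of silenced genes. In rd10 mice the rods lose their outer segments and die in the weeks after birth, and microglia, the resident macrophages of the retina, become phagocytic and surround them while Müller glia turn reactive. Rods depend on the retinal pigment epithelium (RPE), the pigmented layer behind the photoreceptors, which recycles the visual chromophore, moves lactate, ions and water, and takes up shed outer segments. A dissected retina can carry some of that layer with it, and in bulk tissue fewer cells of a type and less RNA per cell cannot be told apart.

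Counted reads ran from 17166788 to 26119462 per library, and levels are CPM, counts scaled to a common total and by TMM factors. On this scale a count of 3, taken as the floor, was worth 0.109 to 0.186 CPM by library. Levels are listed as control replicates 1, 2 and 3 and then UNC1999 replicates 1, 2 and 3. Log2 fold changes are UNC1999 over control. Their standard errors are approximate, worked back from the log2 fold change and the F statistic of the test. Each adjusted p is that of the edgeR quasi-likelihood test, adjusted by the Benjamini-Hochberg method over all 15775 genes. Genes are said to have passed at an adjusted p-value under 0.05, and to have been called where the log2 fold change was also beyond 1. Groups are said to lie apart where all 3 UNC1999 libraries were above, or below, all 3 controls.

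Control replicate 3 stood apart from the other controls. Its Pearson correlation over log2 CPM was 0.987 to 0.991 with the UNC1999 libraries, and 0.981 and 0.987 with controls 1 and 2, whereas controls 1 and 2 correlated at 0.991. On the first principal component, which held 58.7% of the variance, controls 1 and 2 lay at −42.8 and −33.3, control 3 at 3.42, and the UNC1999 libraries at 36.2, 12.8 and 23.6. Counts of genes that passed are therefore given with and without control 3, and why it stood apart was not tested. All 6 libraries held markers of the retinal neurons, with summed levels of 17184 to 63843 CPM for 10 rod genes and 443 to 554 CPM for 6 horizontal cell genes.

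With UNC1999, 47 genes (0.298% of those tested) were called higher and 11 (0.0697%) lower. At any fold, 79 genes (0.501%) were higher and 16 (0.101%) lower. The groups lay apart for all 95 of these, and for 2186 genes (13.9%) and 2142 genes (13.6%) of the whole table in the higher and lower direction. Each count of genes with groups apart in a list is to be set beside these shares. A further 406 genes had adjusted p-values from 0.05 up to 0.06, and 3728 had an unadjusted p-value under 0.05. Pde6b and Cx3cr1 are among these 406.

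Which library was left out changed the number that passed. With any library other than control 3 left out, 4 to 26 genes were higher and 0 to 2 lower. Without control 3, 1338 genes were higher and 1369 lower, and all 79 higher and all 16 lower genes of the complete comparison were among them. Of the 15775 genes of the complete comparison, 8.45% were then higher and 8.19% lower. Each count given for a list without control 3 is to be set beside these shares. In all 6 of these fits 4 genes passed, namely Rgr, Rdh5, Slc6a20a and Ttr, each higher with UNC1999 and each on an RPE list. None of the 16 lower genes passed in more than 1 of the 6 fits, the one without control 3.

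**Figure D1:**
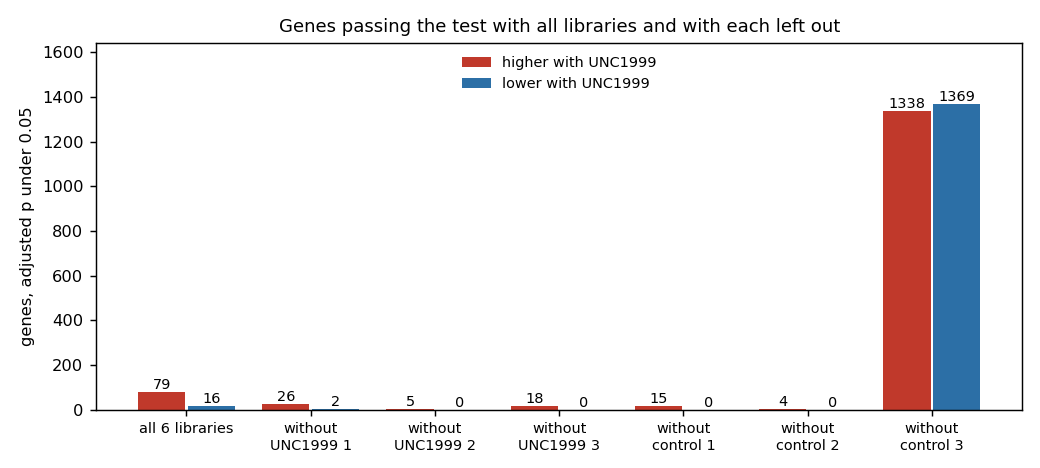
Genes at an adjusted p-value under 0.05 (vertical axis) with all 6 libraries and with each library left out in turn, as bars for genes higher and lower with UNC1999. The 79 and 16 genes of the complete comparison become 1338 and 1369 without control 3, and 26 or fewer in either direction without any other library.

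Genes of the RPE lists made up 22 of the 47 genes called higher, against 48 of the 15775 genes tested. These lists were written with earlier results of these data known, so the overlap describes the calls and is no independent support. The 4 lists of RPE genes held 49 members, of which 48 could be tested. Of these, 41 had a positive log2 fold change, against 49.6% of all genes, 22 passed as higher and none as lower, and the groups lay apart for 32 in the higher and 3 in the lower direction. The median log2 fold change was 1.25, and 1.49 without control 3, beside a median of −0.00199 over all genes. Without control 3, 29 passed as higher and 4 as lower. Among the lower ones, named after their values were seen, were the retinol dehydrogenase Rdh10 of the visual cycle list, and Efemp1 and Igfbp2, secreted proteins, of the adhesion list. With all libraries their log2 fold changes were −0.68 ± 0.19, −0.62 ± 0.13 and −0.45 ± 0.15 (adjusted p = 0.0905, 0.0574 and 0.125), and of these only Efemp1 had its groups apart. The lowest log2 fold change of the visual cycle list, −0.81, belonged to a gene not named here. All 3 genes with groups apart in the lower direction were in the adhesion list.

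Promoters are shown as the 250 bases before the transcription start, for the RPE genes that passed in all 6 fits with a library left out, other than Ttr, and for Abca4, the photoreceptor gene that passed with all libraries. Sequences are from RefSeq on GRCm38.p6, 5′ to 3′ on the strand of the gene. Capitals mark matches on either strand to TAATCC, the core bound by the photoreceptor and RPE factors Crx and Otx2, to the E-boxes CACGTG and CATGTG, which the melanocyte and RPE factor Mitf can bind, and to GAGGAAG, a core of the myeloid factor PU.1. No matches overlapped in these 4 promoters.
Rgr (chr14:37049015-37049264, minus strand): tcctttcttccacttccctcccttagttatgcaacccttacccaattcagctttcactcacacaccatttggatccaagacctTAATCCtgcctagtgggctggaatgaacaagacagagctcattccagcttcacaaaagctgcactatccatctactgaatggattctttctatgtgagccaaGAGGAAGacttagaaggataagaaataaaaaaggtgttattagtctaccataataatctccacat
Rdh5 (chr10:128919298-128919547, minus strand): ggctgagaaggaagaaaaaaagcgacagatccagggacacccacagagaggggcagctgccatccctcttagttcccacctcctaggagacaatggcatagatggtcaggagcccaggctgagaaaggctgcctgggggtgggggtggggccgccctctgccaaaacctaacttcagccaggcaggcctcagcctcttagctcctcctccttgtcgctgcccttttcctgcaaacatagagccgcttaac
Slc6a20a (chr9:123678833-123679082, minus strand): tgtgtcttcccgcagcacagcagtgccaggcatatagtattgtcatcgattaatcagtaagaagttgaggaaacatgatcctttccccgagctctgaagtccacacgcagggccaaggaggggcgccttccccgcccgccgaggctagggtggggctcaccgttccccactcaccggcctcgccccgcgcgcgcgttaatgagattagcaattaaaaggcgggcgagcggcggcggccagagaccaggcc
Abca4 (chr3:122044210-122044459, plus strand): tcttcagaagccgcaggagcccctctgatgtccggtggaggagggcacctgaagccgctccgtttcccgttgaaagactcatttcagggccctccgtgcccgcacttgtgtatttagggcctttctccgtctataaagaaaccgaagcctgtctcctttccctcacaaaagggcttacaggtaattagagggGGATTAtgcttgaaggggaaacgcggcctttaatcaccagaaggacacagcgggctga
TAATCC lies at −167 to −162 from the start in Rgr and at −58 to −53 in Abca4, and Rgr also holds a PU.1 core at −65 to −59. The windows of Rdh5 and Slc6a20a hold none of these letters. A promoter was found for 38 of the 48 RPE genes tested, and 21.1% of these held TAATCC and 29.0% an E-box. For the rod phototransduction genes TAATCC stood in 53.9% of 13 promoters. Over all 27025 genes with a promoter the shares were 7.21% for TAATCC, 19.8% for an E-box and 12.0% for the PU.1 core, which stood in 26.1% of 23 promoters of activated microglia genes. These matches describe letters in the window and not binding.

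Genes of the visual cycle, which turns spent all-trans retinal back into the chromophore, included Rgr and Rdh5, which had the smallest p-values of the comparison. Of 11 genes 6 passed, all higher, and the median log2 fold change was 1.40 (7 higher and 2 lower without control 3). Rgr (ENSMUSG00000021804, chromosome 14 from 37850676 to 37862150 in NCBIM37), an opsin of RPE and Müller cells that returns retinal to the cis form, stood at 26.9, 26.8 and 28.9 CPM in the controls and at 133, 113 and 107 CPM with UNC1999. It rose 4.27-fold, a log2 fold change of 2.09 ± 0.09 (adjusted p = 0.000299), and its 3 controls, control 3 included, lay within a narrow band. Rdh5 (ENSMUSG00000025350, chromosome 10 from 128350649 to 128359944), the dehydrogenase that makes 11-cis retinal from its alcohol, went from 7.95, 7.31 and 7.48 CPM to 27.1, 24.5 and 24.6 CPM, a log2 fold change of 1.75 ± 0.09 (adjusted p = 0.000624). Neither gene had a control library within reach of the treated ones.

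Stra6, the receptor that takes up retinol from its carrier in blood, had 9.85, 8.55 and 9.67 CPM in the controls and 39.3, 29.3 and 28.5 CPM with UNC1999 (log2 fold change 1.79 ± 0.14, adjusted p = 0.00549). Ttr, transthyretin, a carrier of thyroxine and of the retinol-binding protein, had 48.6, 53.3 and 58.2 CPM and then 151, 139.8 and 131 CPM (log2 fold change 1.40 ± 0.08, adjusted p = 0.000893). Rpe65 and Lrat, which hydrolyse and form retinyl esters, were named after their values were seen. Rpe65 went from 4.26, 5.86 and 12.05 CPM to 45.2, 36.9 and 32.3 CPM (log2 fold change 2.37 ± 0.33, adjusted p = 0.0345), and control 3 held the most of the controls. Lrat went from 13.6, 9.603 and 7.57 CPM to 25.6, 34.3 and 38.4 CPM (log2 fold change 1.68 ± 0.22, adjusted p = 0.0290), and here control 3 held the least. Rlbp1, the retinal-binding protein that Müller cells share with the RPE, did not separate the groups, with 347, 459 and 539 CPM beside 629, 485 and 558 CPM (log2 fold change 0.31, adjusted p = 0.288).

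Pigment genes shared this direction. All 9 melanin and melanosome genes tested had positive log2 fold changes with a median of 1.72, 8 had their groups apart and 4 passed (7 without control 3). Their summed level was 39.0, 40.4 and 57.2 CPM in the controls and 129, 110 and 108 CPM with UNC1999. Dct, dopachrome tautomerase of melanin synthesis, rose from 20.3, 19.02 and 26.4 CPM to 62.1, 58.2 and 55.3 CPM (log2 fold change 1.42 ± 0.12, adjusted p = 0.00698). Oca2, a melanosomal membrane protein, rose from 1.03, 1.13 and 1.43 CPM to 5.03, 4.32 and 5.04 CPM (adjusted p = 0.0104), and Slc24a5, a melanosomal cation exchanger, from 1.59, 0.946 and 1.62 CPM to 5.84, 4.595 and 4.85 CPM (adjusted p = 0.0269). Tyr, the tyrosinase that begins melanin synthesis, named after its value was seen, had 1.85, 2.401 and 3.62 CPM and 12.1, 8.83 and 8.72 CPM (log2 fold change 1.90 ± 0.25, adjusted p = 0.0290). Pmel, which forms the fibrils of melanosomes, had its groups apart but differed among the controls, with 2.41, 5.31 and 9.24 CPM beside 15.4, 10.2 and 13.1 CPM (adjusted p = 0.127). In the same sum over melanin genes with all 22 retinas scaled together, UNC1999 retinas had 112 to 135 CPM and their controls 40.3 to 59.7. The control groups of the other 3 inhibitors had 37.5 to 87.7 CPM and DZNep retinas 54.2 and 220 CPM, so the level differs between retinas by more than it does among the 3 controls here.

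Of 12 channels and transporters 6 passed, all higher, with a median log2 fold change of 1.18. Slc6a20a, an imino acid transporter, rose 4.86-fold from 3.03, 3.53 and 4.095 CPM to 16.2, 17.9 and 17.8 CPM (log2 fold change 2.28 ± 0.13, adjusted p = 0.000893). Slc16a8, the lactate transporter of the RPE known as MCT3, rose from 4.31, 4.47 and 5.52 CPM to 21.5, 16.7 and 16.3 CPM (log2 fold change 1.92 ± 0.16, adjusted p = 0.00549). The zinc transporter Slc39a12 rose from 1.95, 2.07 and 2.095 CPM to 5.34, 4.91 and 5.16 CPM (adjusted p = 0.0170). The 3 controls of each gene lay close together, and the summed level of the list was 111, 109 and 110 CPM in the controls against 177, 176 and 175 CPM. Without control 3, 6 passed as well.

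The control groups of the other 3 inhibitors give a wider range for these sums. With all 22 retinas scaled together, the channel list summed to 183 to 186 CPM with UNC1999, to 115 to 116 CPM in its own controls and to 110.3 to 174 CPM in the other controls. The visual cycle list summed to 1146 to 1338.5 CPM with UNC1999, to 813 to 913 CPM in its own controls and to 917 to 1046 CPM in the others. For both lists the UNC1999 retinas lay above every whole-retina control of the series, and for the visual cycle their own controls lay below all others. Among treated retinas, UNC0642 reached 1159.8 and 1211.5 CPM for the visual cycle and DZNep 150.4 and 202 CPM for channels. In the 6 libraries compared here Rlbp1, whose groups overlapped, held the largest part of the visual cycle sum. Müller cells share this gene with the RPE, so the sum is not a level of the RPE alone.

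Of 16 genes for adhesion, cytoskeleton and matrix of the RPE 6 passed, again all higher, with a median of 0.88 (9 higher and 2 lower without control 3). Krt8, an epithelial keratin, rose from 2.21, 1.601 and 1.95 CPM to 6.65, 6.78 and 5.98 CPM (log2 fold change 1.76 ± 0.17, adjusted p = 0.0104), and its partner Krt18 had 148, 137 and 188 CPM beside 261, 235 and 265 CPM (log2 fold change 0.69 ± 0.12, adjusted p = 0.0530). Mfrp, a membrane protein of the RPE needed for normal eye growth, rose from 5.54, 5.71 and 6.81 CPM to 28.6, 21.02 and 17.5 CPM (log2 fold change 1.89 ± 0.19, adjusted p = 0.0112). Col8a2, a collagen of basement membranes, rose from 5.799, 6.77 and 9.81 CPM to 33.7, 27.4 and 25.7 CPM (log2 fold change 1.95 ± 0.20, adjusted p = 0.0112).

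Other tissues that lie next to the retina were checked by their markers. Of 12 genes of ciliary body and choroid plexus epithelium 3 passed, all higher (5 without control 3). Clic6, a chloride channel protein, rose from 3.18, 4.98 and 5.29 CPM to 19.9, 20.2 and 17.8 CPM (log2 fold change 2.09 ± 0.18, adjusted p = 0.00698). Car12, a carbonic anhydrase, rose from 5.95, 3.89 and 3.81 CPM to 19.3, 16.7 and 15.5 CPM (adjusted p = 0.0104), and Calml4, a calmodulin-like protein, from 0.7698, 0.546 and 0.667 CPM to 2.55, 2.09 and 2.07 CPM (adjusted p = 0.0297). The list as a whole had a median of 0.29 (0.47 without control 3), and Kcne2, a potassium channel subunit, overlapped between groups with 33.3, 45.98 and 69.8 CPM and 78.95, 59.8 and 66.9 CPM. None of 8 fibroblast genes of choroid and sclera passed, with or without control 3 (median −0.00163). Their summed level was 53.8, 79.1 and 64.2 CPM in the controls and 62.9, 63.2 and 57.4 CPM with UNC1999, and Col1a2, a fibrillar collagen, had 11.03, 17.8 and 8.52 CPM and 9.81, 11.5 and 10.1 CPM. Of 20 lens genes only 4 had enough counts to be tested and none passed (1 lower without control 3), with 4.53 to 7.82 CPM summed per library. Whether more RPE tissue came with the retinas of 1 group was not tested.

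**Figure D2:**
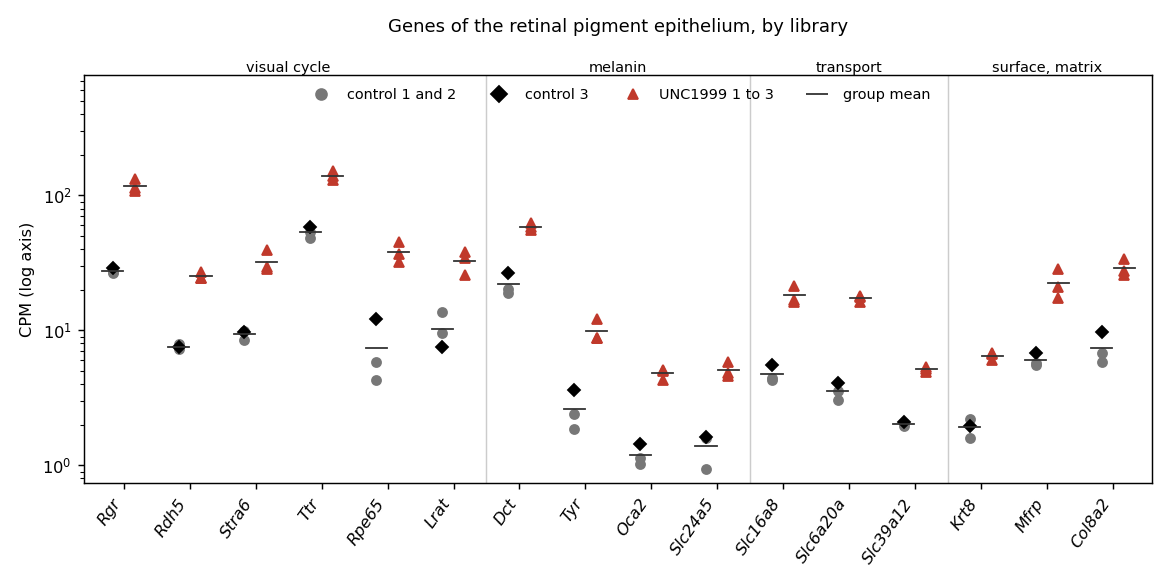
CPM (log axis) of 16 RPE genes in each library, with controls 1 and 2 as circles, control 3 as diamonds, UNC1999 libraries as triangles and group means as bars. Every UNC1999 library lies above every control for each gene, and control 3 lies close to the other controls for Rgr, Rdh5, Stra6 and Slc39a12. The genes shown all come from the 32 of 48 tested RPE genes with groups apart in the higher direction. Another 3 lay apart in the lower direction and are not shown.

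Photoreceptor genes were higher with UNC1999 as a class but passed the test only once. Over 5 lists with 60 genes tested, 59 had a positive log2 fold change and 53 had every UNC1999 library above every control. Of all genes these shares were 49.6% and 13.9%. Only Abca4 passed with all libraries. Without control 3, 52 of the 60 passed as higher, beside 1333 (8.45%) of all 15775 genes higher and 1292 (8.19%) lower. The median log2 fold change was 0.70, and 0.91 without control 3.

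The 10 genes of rod phototransduction up to the closure of the channel all had their groups apart. None passed, and the log2 fold changes had a median of 1.03. Gnat1, the alpha subunit of rod transducin, had 4328, 3402 and 7068 CPM beside 13586, 9925 and 10730.0 CPM (log2 fold change 1.21 ± 0.26, adjusted p = 0.0598). In Gnat1, control 3 stood well above controls 1 and 2 and below all treated libraries. Pde6b, whose coding change defines the strain, had 757, 578 and 1143 CPM beside 2224, 1594 and 2023 CPM (log2 fold change 1.24 ± 0.24, adjusted p = 0.0538). Pde6g, the inhibitory subunit of the same enzyme, had 688, 574 and 1085 CPM beside 2060.2, 1443 and 1545 CPM (adjusted p = 0.0589).

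Of the 10 genes that end the light response 9 had their groups apart, with a median log2 fold change of 0.74. Guca1b, an activator of guanylate cyclase, had 448, 335 and 606 CPM beside 1139.5, 794 and 939.9 CPM (log2 fold change 1.05 ± 0.22, adjusted p = 0.0582), and Gucy2f, a guanylate cyclase of photoreceptors, had 55.9, 46.7 and 91.7 CPM beside 144, 142 and 118 CPM (adjusted p = 0.0588). Rgs9bp, the anchor of the GTPase-activating protein of transducin, had 334, 297 and 497 CPM beside 828, 611 and 699.6 CPM (adjusted p = 0.0588). Pdc, phosducin, which binds transducin's beta and gamma subunits, had 760.2, 616 and 1266 CPM beside 2526, 1668 and 1828 CPM (adjusted p = 0.0632). Sag, rod arrestin, was the gene whose groups overlapped, with 1809.6, 2037 and 2774 CPM beside 3350.5, 2618 and 2644 CPM (log2 fold change 0.38, adjusted p = 0.234), and control 3 exceeded 2 of the UNC1999 libraries.

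Of 13 genes of the outer segment and cilium 12 had their groups apart (median 0.78). Abca4 (ENSMUSG00000028125, chromosome 3 from 121747361 to 121882979 in NCBIM37), the transporter that clears retinoid from discs, rose from 469, 424 and 644 CPM to 1141, 1028 and 933 CPM, a log2 fold change of 1.01 ± 0.16 (adjusted p = 0.0468). Prph2 and Rom1 are the tetraspanins that shape the disc rim. Prph2 had 1992, 1691 and 3015 CPM beside 5189.8, 3758 and 3992 CPM (log2 fold change 0.95 ± 0.22, adjusted p = 0.0667), and Rom1 had 896, 754 and 1302 CPM beside 2302, 1706 and 1855 CPM (log2 fold change 0.99 ± 0.21, adjusted p = 0.0582). Tulp1, which helps carry proteins to the outer segment, had 708, 582 and 965 CPM beside 1630.4, 1286 and 1445 CPM (adjusted p = 0.0533), and Rdh8, the retinol dehydrogenase of the outer segment, 62.6, 54.96 and 76.8 CPM beside 125, 99.9 and 110.4 CPM (adjusted p = 0.0503).

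Among 11 photoreceptor transcription factors 8 had their groups apart, with a median of 0.63. Esrrb, an orphan nuclear receptor of rods, had the greatest difference of the list, with 213, 163 and 285 CPM beside 677, 459 and 492 CPM (log2 fold change 1.30 ± 0.22, adjusted p = 0.0514). Nrl, which sets rod fate, had 480.5, 371 and 748 CPM beside 1516, 935 and 1081 CPM (log2 fold change 1.14 ± 0.27, adjusted p = 0.0679). Crx, shared by rods and cones, had 600.2, 566 and 806 CPM beside 1247, 931 and 983 CPM (log2 fold change 0.68 ± 0.16, adjusted p = 0.0676). Mef2c had 34.1, 35.2 and 52.9 CPM beside 102, 76.7 and 71.1 CPM (log2 fold change 1.03 ± 0.20) and Rorb 171, 165 and 194 CPM beside 318, 264 and 233 CPM (log2 fold change 0.62 ± 0.12). Of 16 genes for photoreceptor support and the ribbon synapse 14 had their groups apart, with a median of 0.58. Reep6, a protein of the rod endoplasmic reticulum, had 448, 360.4 and 644 CPM beside 1265, 797 and 852 CPM (adjusted p = 0.0702) and Rims2, an active zone protein, 126, 131 and 169.8 CPM beside 229, 193 and 201 CPM (adjusted p = 0.0611).

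The text of the study picks out Hk2, Rabgef1 and Selenbp1. By its account they were lower in degenerating rods of published single-cell data and higher in sorted rods given another inhibitor of the series. It adds that they also rose with UNC1999, a statement that rests on these libraries. The study also measured a panel of genes by qRT-PCR to check its RNA-seq results, so that panel is not independent of these libraries. Of the 11 panel genes 1, Cst7, passed here. All had their groups apart, 5 higher and 6 lower (4 and 6 passed without control 3). Selenbp1, a selenium-binding protein, passed, going from 10.3, 8.73 and 13.3 CPM to 28.1, 20.7 and 21.9 CPM (log2 fold change 1.13 ± 0.18, adjusted p = 0.0471). Hk2, the hexokinase of photoreceptor glycolysis, had 224, 199 and 274 CPM beside 491, 371 and 377 CPM (log2 fold change 0.83 ± 0.15, adjusted p = 0.0533), and Rabgef1, a Rab exchange factor, 59.99, 61.5 and 112 CPM beside 186, 134 and 169 CPM (log2 fold change 1.07 ± 0.24, adjusted p = 0.0622).

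**Figure D3:**
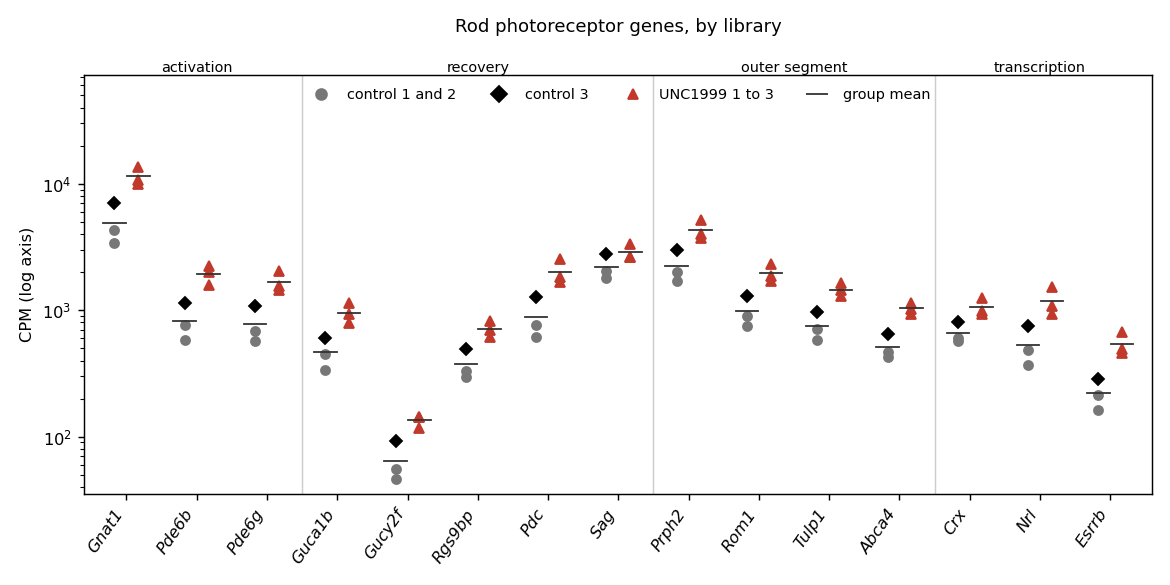
CPM (log axis) of 15 photoreceptor genes in each library, with controls 1 and 2 as circles, control 3 as diamonds, UNC1999 libraries as triangles and group means as bars. Control 3 lies above controls 1 and 2 for all 15 genes and below every UNC1999 library for all but Sag.

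Cone genes had a lower median than rod genes, a difference that was not tested. Of 12 none passed and the median was 0.28. The groups lay apart for 2 in the higher and 1 in the lower direction, beside 13.9% and 13.6% of all genes. Without control 3, 8 of the 12 passed as higher and 1 as lower, and the median was 0.44. Opn1sw, the short-wavelength cone opsin, ranged more widely among controls than between groups, with 141, 301 and 591 CPM beside 656, 465 and 553 CPM (adjusted p = 0.370). Pde6c, the catalytic subunit of the cone phosphodiesterase, had 149, 141 and 167 CPM beside 177, 175 and 207 CPM (log2 fold change 0.29 ± 0.09, adjusted p = 0.107). Gnb3, the transducin beta subunit of cones and ON bipolar cells, was lower in all 3 treated libraries, with 844, 860.2 and 645 CPM beside 456, 573 and 585 CPM (log2 fold change −0.54 ± 0.14, adjusted p = 0.0765).

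Genes of inner neurons had medians from −0.14 to 0.03. No gene passed among 14 of bipolar, 11 of amacrine, 11 of ganglion and 6 of horizontal cells, and their medians were −0.14, 0.01, 0.03 and −0.02. The groups of 8 of the 14 bipolar genes lay apart in the lower direction and of 1 in the higher, beside 13.6% and 13.9% of all genes. Without control 3 the list gave 2 higher and 4 lower genes. The amacrine and ganglion lists then gave 1 higher gene each and the horizontal list 2. Of all genes 8.45% were higher and 8.19% lower in that fit. Grik1, a kainate receptor of OFF bipolar cells, had 203, 216 and 160.5 CPM beside 128, 148 and 135 CPM (adjusted p = 0.0632), and Bhlhe23, a factor of rod bipolar cells, 40.03, 34.6 and 33.3 CPM beside 28.7, 22.98 and 23.3 CPM (adjusted p = 0.0588). The summed levels of the bipolar list were 2076, 2202 and 2119 CPM in the controls and 2007, 2009 and 1857 CPM with UNC1999. Every treated sum was thus below every control sum, by a small amount.

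Microglial and macrophage genes were lower with UNC1999. Of 30 genes of activated and phagocytic cells all 30 had a negative log2 fold change, 22 had their groups apart and 4 passed, with a median of −1.64. Without control 3, 27 passed as lower and the median was −1.94. The summed level of the list was 949, 858 and 381 CPM in the controls and 251, 337 and 279 CPM with UNC1999, so control 3 lay nearer to the treated libraries than to the other controls.

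The 4 that passed were Ms4a6d, Emr1, Cst7 and Lyz2. Ms4a6d (ENSMUSG00000024679, chromosome 19 from 11661094 to 11679339 in NCBIM37), a membrane protein of macrophages, fell from 2.93, 2.62 and 1.48 CPM to 0.311, 0.364 and 0.313 CPM (log2 fold change −2.81 ± 0.35, adjusted p = 0.0256). Emr1, the macrophage receptor now called Adgre1, fell from 11.03, 13.5 and 6.09 CPM to 1.99, 2.14 and 2.35 CPM (log2 fold change −2.23 ± 0.29, adjusted p = 0.0278). Cst7, cystatin F, an inhibitor of lysosomal proteases, fell from 1.899, 2.55 and 1.67 CPM to 0.186, 0.5005 and 0.4302 CPM (log2 fold change −2.39 ± 0.35, adjusted p = 0.0377). Its value in UNC1999 replicate 1 lay at the 3-count floor. Lyz2, a lysozyme of myeloid cells, fell from 55.4, 55.1 and 22.3 CPM to 6.77, 9.83 and 4.69 CPM (log2 fold change −2.65 ± 0.39, adjusted p = 0.0408). For Ms4a6d and Lyz2 control 3 had roughly the middle place between the other controls and the treated libraries, and for Cst7 it lay close to control 1.

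Ptprc, the pan-leukocyte phosphatase CD45, had 9.700, 7.38 and 2.86 CPM beside 0.994, 2.18 and 1.45 CPM (log2 fold change −2.08 ± 0.46, adjusted p = 0.0611). Gpnmb, a glycoprotein of phagocytes full of lipid and debris, had 162, 125 and 27.3 CPM beside 28.2, 33.9 and 23.7 CPM (log2 fold change −1.87 ± 0.54, adjusted p = 0.0955), and control 3 was as low as the treated libraries. Axl, a receptor for dying cells that other retinal cells also make, had 111, 92.3 and 50.2 CPM beside 32.98, 56.4 and 51.4 CPM (adjusted p = 0.138), again with control 3 among the treated.

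Of 16 homeostatic microglia markers 13 had their groups apart, all lower, with a median of −1.03, and none passed (13 without control 3). Cx3cr1, the fractalkine receptor, had 34.8, 33.1 and 21.5 CPM beside 12.7, 17.4 and 11.97 CPM (log2 fold change −1.09 ± 0.21, adjusted p = 0.0535). Fcrls, an Fc receptor-like scavenger receptor of microglia, had 20.7, 25.4 and 11.00 CPM beside 5.34, 6.597 and 5.59 CPM (log2 fold change −1.71 ± 0.29, adjusted p = 0.0516), and Csf1r, the receptor microglia need to survive, 48.4, 45.5 and 34.3 CPM beside 30.6, 29.2 and 25.4 CPM (log2 fold change −0.59 ± 0.14, adjusted p = 0.0632). The median of the activated list was thus further from 0 than that of the homeostatic list, a difference that was not tested.

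Of 16 complement genes tested 13 had a negative log2 fold change and 9 had their groups apart in the lower direction, with a median of −1.08, while the only gene to pass was a higher one. Without control 3, 11 passed as lower and 1 as higher. C1qc, of the C1q complex made by microglia, had 38.03, 48.6 and 29.2 CPM beside 16.03, 20.4 and 12.8 CPM (log2 fold change −1.24 ± 0.22, adjusted p = 0.0533). C1ra, a protease of C1, had 13.8, 12.6 and 6.62 CPM beside 2.61, 4.23 and 3.13 CPM (adjusted p = 0.0533), Serping1, its inhibitor, 117, 129.7 and 69.6 CPM beside 24.97, 51.3 and 33.4 CPM (adjusted p = 0.0535), and C4b 114, 134 and 123 CPM beside 43.5, 91.7 and 56.4 CPM (adjusted p = 0.0738).

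MHC class II genes, which present antigen on myeloid cells, had the lowest median of the immune lists, −2.47 over 6 tested of 10, and 5 had their groups apart. Cd74, the invariant chain, had 12.3, 12.4 and 3.19 CPM beside 0.373, 1.36 and 0.508 CPM (log2 fold change −3.59 ± 0.63, adjusted p = 0.0533). H2-Ab1 had 7.75, 7.75 and 2.95 CPM beside 1.37, 1.59 and 0.939 CPM (log2 fold change −2.25 ± 0.41, adjusted p = 0.0533), and H2-Eb1 4.36, 4.95 and 1.81 CPM beside 0.808, 0.546 and 0.4302 CPM (log2 fold change −2.68 ± 0.44, adjusted p = 0.0501). None passed with all libraries and 5 passed without control 3. Of 15 genes for MHC class I and antigen processing all were lower (median −1.28), 8 had their groups apart and none passed, against 15 without control 3. H2-K1, a class I heavy chain, had 166, 149 and 79.8 CPM beside 39.9, 69.3 and 51.6 CPM (adjusted p = 0.0610), and its light chain B2m 158, 134 and 69.95 CPM beside 40.4, 62.1 and 46.1 CPM (adjusted p = 0.0615). MHC genes resemble each other, and their reads may be split between copies.

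Interferon-response genes were also all lower, 23 of 23, with a median of −0.79, but the groups lay apart for only 1 of them, and none passed (10 without control 3). That gene was Bst2, tetherin, with 24.2, 19.6 and 9.29 CPM beside 3.73, 8.83 and 5.01 CPM (adjusted p = 0.0757). Ifi44, an interferon-induced protein, had 6.72, 3.35 and 1.0000 CPM beside 0.311, 1.46 and 0.469 CPM (adjusted p = 0.121). The response varied within both groups, since control 1 exceeded control 3 and UNC1999 replicate 2 exceeded replicate 1 in both genes. Of 19 innate receptors and chemokines 7 had their groups apart, all lower (median −1.21), and none passed (11 lower without control 3). Tlr13, a sensor of bacterial ribosomal RNA, had 6.26, 5.06 and 2.38 CPM beside 1.55, 1.46 and 0.978 CPM (adjusted p = 0.0582), and Ly86, a partner of an innate receptor, 13.1, 12.1 and 7.19 CPM beside 3.79, 5.32 and 4.69 CPM (adjusted p = 0.0549). Of 13 lymphocyte and granulocyte genes only 2 had enough counts to be tested, and neither passed with or without control 3.

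**Figure D4:**
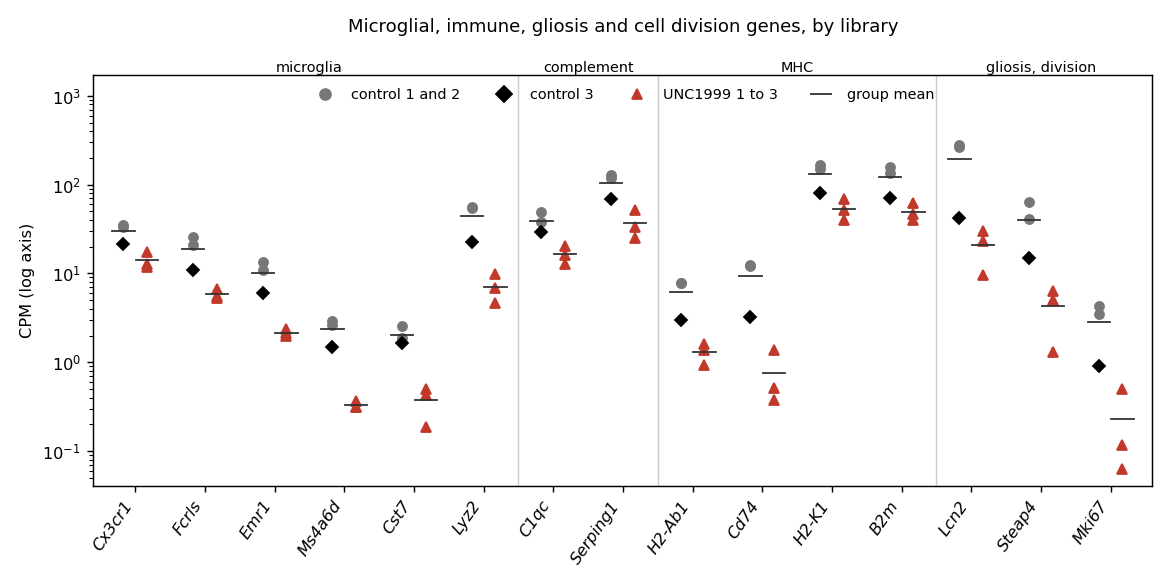
CPM (log axis) of 15 microglial, complement, MHC, gliosis and cell division genes in each library, with controls 1 and 2 as circles, control 3 as diamonds, UNC1999 libraries as triangles and group means as bars. All 15 are lower in every UNC1999 library than in every control, and control 3 lies below controls 1 and 2 for each of them.

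No gene of reactive glia or dividing cells passed with all libraries. Of 18 gliosis and injury genes 16 had a negative log2 fold change and 5 had their groups apart, all lower, with a median of −0.59 (5 passed without control 3). Lcn2, lipocalin, an iron-carrier protein of inflammation, had 280.4, 266 and 42.2 CPM beside 9.504, 29.98 and 23.3 CPM (log2 fold change −3.21 ± 0.70, adjusted p = 0.0589). Steap4, a metalloreductase, had 64.1, 41.2 and 14.95 CPM beside 1.304, 6.42 and 5.04 CPM (log2 fold change −3.18 ± 0.61, adjusted p = 0.0533), and Cp, ceruloplasmin, 1184, 914 and 480.0 CPM beside 257, 433 and 341 CPM (log2 fold change −1.32 ± 0.32, adjusted p = 0.0703). Control 3 lay nearer to the treated libraries than to controls 1 and 2 in these genes. Of 9 cell cycle genes 8 had a negative log2 fold change and 4 had their groups apart, all lower (median −0.74, and 7 passed without control 3). Mki67, a marker of dividing cells, had 4.26, 3.46 and 0.905 CPM beside 0.0621, 0.5005 and 0.117 CPM (log2 fold change −3.58 ± 0.75, adjusted p = 0.0582), 1 treated value being under the 3-count floor and 1 at it. Top2a, a topoisomerase of dividing cells, had 2.77, 3.71 and 1.0000 CPM beside 0.186, 0.182 and 0.587 CPM (log2 fold change −2.88 ± 0.61, adjusted p = 0.0585). Its value in UNC1999 replicate 1 lay at the floor.

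Markers of mature Müller glia had a median of −0.22 over 14 genes and none passed (5 lower without control 3). The groups lay apart for 4, all lower, beside 13.6% of all genes. Slc1a3, the glutamate transporter GLAST, had 518, 522 and 439 CPM beside 332, 387 and 335 CPM (log2 fold change −0.49 ± 0.10, adjusted p = 0.0546), and Aqp4, the water channel, 168, 176 and 174 CPM beside 123, 118 and 78.4 CPM (log2 fold change −0.70 ± 0.15, adjusted p = 0.0603). Glul, glutamine synthetase, differed more among controls than between groups, with 929, 1506 and 2553 CPM beside 2873, 1714 and 1414 CPM. Of 12 endothelial and 10 pericyte genes none passed (medians −0.02 and −0.22). Without control 3 the endothelial list gave 1 higher and 1 lower gene and the pericyte list 1 and 2. Of all genes 8.45% were then higher and 8.19% lower. Kdr, a receptor for vascular growth factor, had 443, 440.3 and 383 CPM beside 261, 303 and 207 CPM (adjusted p = 0.0533), and Slc2a1, the glucose transporter of vessels, RPE and photoreceptors, 239.8, 228 and 271 CPM beside 331, 295 and 313 CPM (adjusted p = 0.0679). Of 6 red blood cell genes none passed with or without control 3 (median −0.25). Of 9 oligodendrocyte genes 5 could be tested and none passed (median 0.61, with 2 higher and 1 lower without control 3).

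Genes of sterol synthesis and uptake were higher by small amounts. Of 15 genes 14 had every treated library above every control, 3 passed and the median was 0.39 (12 passed without control 3). Insig1, a feedback regulator of sterol synthesis that SREBP induces, rose from 65.8, 65.7 and 70.7 CPM to 100.1, 97.6 and 109.8 CPM (log2 fold change 0.61 ± 0.07, adjusted p = 0.0147). Lss, lanosterol synthase, rose from 59.99, 58.6 and 60.9 CPM to 77.5, 83.7 and 93.3 CPM (log2 fold change 0.51 ± 0.08, adjusted p = 0.0408). Srebf2, the transcription factor of the pathway, had 248, 233 and 247 CPM beside 289, 279.9 and 297 CPM (adjusted p = 0.0686). In these genes control 3 lay within or close to the range of the other controls.

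The position of control 3 thus differed between gene lists. On a scale where the mean of controls 1 and 2 was 0% and the mean of the UNC1999 libraries 100%, with the mean log2 CPM of a list as its level, control 3 lay at 1.00% for visual cycle genes, 9.06% for RPE channels, 11.6% for RPE adhesion and 16.4% for sterol genes. It lay at 35.6% for melanin genes and 34.2% for homeostatic microglia. For the 5 photoreceptor lists it lay at 52.6% to 63.0%, and for activated microglia, class II and class I MHC genes at 71.2%, 51.5% and 69.9%. For gliosis it lay at 79.1%, for chemokines and receptors at 98.8%, for the interferon response at 104% and for cone genes at 119%. These are places of list means, and members of a list differed. In the visual cycle list control 3 had 12.05 CPM of Rpe65 beside 4.26 and 5.86 CPM in controls 1 and 2. For Lrat it had 7.57 CPM beside 13.6 and 9.603 CPM.

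**Figure D5:**
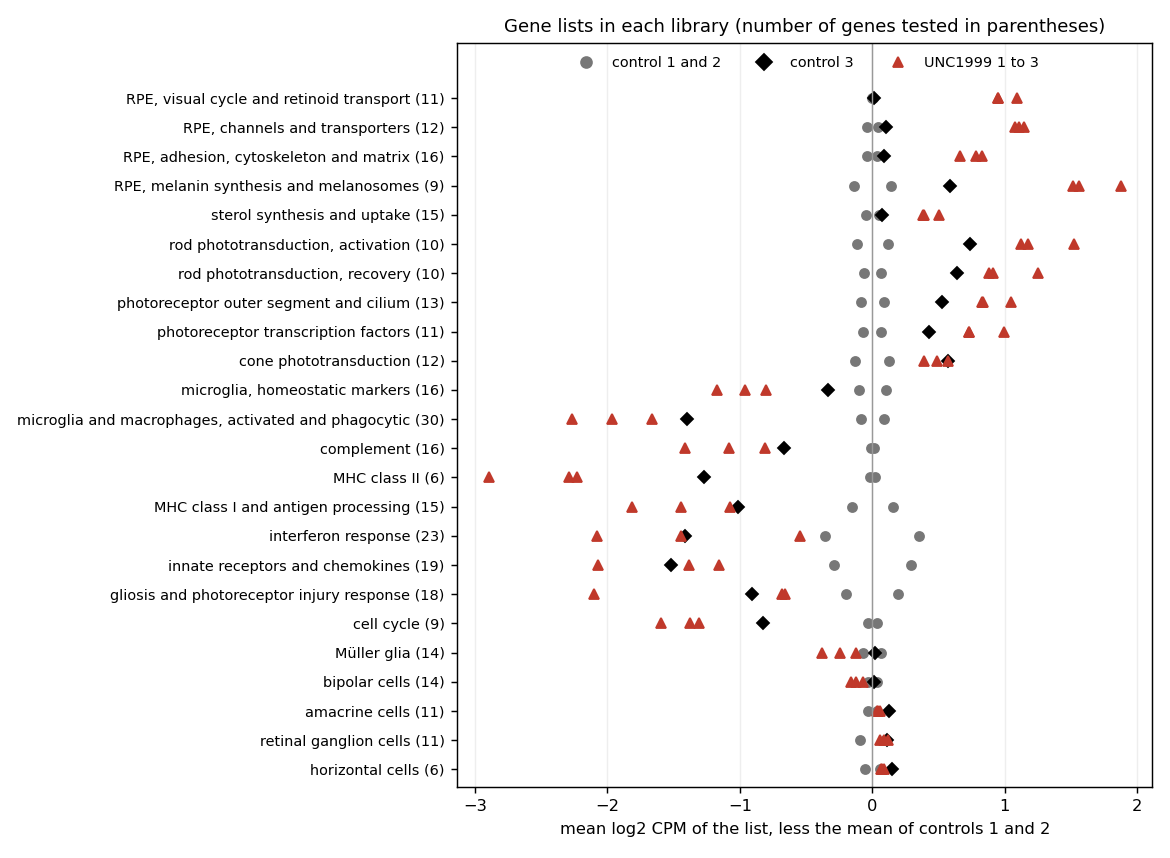
Mean log2 CPM of each gene list per library, less the mean of controls 1 and 2 (horizontal axis), with controls 1 and 2 as circles, control 3 as diamonds and UNC1999 libraries as triangles. Control 3 sits with the controls for RPE visual cycle, channel and adhesion genes and for sterol genes, and between the other controls and the UNC1999 libraries for rod, microglia and MHC class II genes.

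The enzymes that UNC1999 inhibits and the genes they are known to silence were examined as lists. Of 13 genes of PRC2 and of the H3K27 demethylases none passed and the median was 0.09. The groups lay apart for 4, all higher, beside 13.9% of all genes. Without control 3, 5 of the 13 passed as higher. Ezh1, the second methyltransferase, had 81.1, 84.9 and 94.5 CPM beside 112, 97.5 and 99.4 CPM (log2 fold change 0.25 ± 0.08, adjusted p = 0.123). Suz12, a core subunit, had 134, 131 and 150.2 CPM beside 159.7, 159 and 153 CPM (log2 fold change 0.19 ± 0.07, adjusted p = 0.149). Kdm6b, a demethylase, had 111, 104 and 116 CPM beside 136, 122 and 131 CPM (log2 fold change 0.24 ± 0.07, adjusted p = 0.0945). Of 38 well-known Polycomb targets, Hox genes among them, only 4 had enough counts to be tested. Of the 34 others 26 had no count in any of the 6 libraries, and 33 had 3 counts or fewer in every library, UNC1999 included. Of the 4 tested none passed (1 lower without control 3). Cdkn2b, an inhibitor of cell division, had 6.83, 3.46 and 1.43 CPM beside 2.17, 1.82 and 2.35 CPM (log2 fold change −0.87 ± 0.49, adjusted p = 0.319), and Tbx3, a developmental transcription factor, 20.99, 20.8 and 21.2 CPM beside 17.9, 18.2 and 16.97 CPM (log2 fold change −0.25 ± 0.08, adjusted p = 0.107). Summed over the 34 untested targets, counts were 8, 15 and 7 in the controls and 1, 1 and 6 with UNC1999. No rise of these targets was thus seen in whole retina at this depth. Histone methylation itself was not measured in these libraries.

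Other pathways gave few calls. Their counts without control 3 stand beside 8.45% of all genes higher and 8.19% lower in that fit. Of 24 collagens and laminins 2 passed, both higher, and the median was 0.04 (4 higher and 1 lower without control 3). Col4a3, a basement membrane collagen, rose from 3.49, 3.96 and 6.24 CPM to 12.2, 14.5 and 11.3 CPM (log2 fold change 1.47 ± 0.22, adjusted p = 0.0408), and its partner Col4a4 had 2.41, 3.46 and 6.904 CPM beside 18.3, 14.1 and 10.8 CPM (log2 fold change 1.75 ± 0.36, adjusted p = 0.0582). Col9a3 rose from 24.9, 26.8 and 28.8 CPM to 41.4, 38.3 and 39.3 CPM (adjusted p = 0.0308). Of 18 Wnt pathway genes none passed (median −0.07, with 2 higher and 2 lower without control 3), with Sfrp5, a secreted Wnt inhibitor, at 0.103, 0.364 and 0.381 CPM beside 1.99, 1.41 and 0.743 CPM (adjusted p = 0.0667) and Wnt5a at 14.7, 14.9 and 11.7 CPM beside 9.504, 9.83 and 8.09 CPM (adjusted p = 0.0634). The Sfrp5 value of control 1 lay under the 3-count floor. Of 16 immediate-early genes none passed (median 0.23, with 3 higher without control 3), with Npas4, an activity-dependent factor of neurons, at 2.87, 2.36 and 3.000 CPM beside 6.34, 4.23 and 5.67 CPM (adjusted p = 0.0574). Of 12 genes of the integrated stress response none passed (median −0.10, with 1 higher and 2 lower without control 3). Its factor Atf4 had 256, 227 and 261 CPM beside 335, 296 and 352 CPM (adjusted p = 0.0589) while its target Asns, asparagine synthetase, had 54.04, 61.4 and 49.5 CPM beside 42.8, 40.6 and 43.02 CPM (adjusted p = 0.0617).

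Some of the leading genes belonged to no list. Of the genes that passed, 46 higher and 12 lower ones were in none. Cpxm2, a carboxypeptidase-like secreted protein, rose from 6.31, 8.15 and 8.33 CPM to 26.2, 23.8 and 19.8 CPM (log2 fold change 1.61 ± 0.15, adjusted p = 0.00936), and Ptgds, prostaglandin D synthase, from 94.6, 76.2 and 70.00 CPM to 225, 189 and 179 CPM (log2 fold change 1.30 ± 0.13, adjusted p = 0.0104). The genes called lower that no list held were Fam46b, Chdh, Unc93b1, Cd22, Mgst1, BC026585 and Prelp. Fam46b fell from 4.003, 5.06 and 2.81 CPM to 0.994, 1.23 and 1.02 CPM (log2 fold change −1.87 ± 0.27, adjusted p = 0.0358), and BC026585 from 15.3, 12.2 and 9.000 CPM to 4.22, 5.73 and 4.46 CPM (log2 fold change −1.33 ± 0.22, adjusted p = 0.0484). Unc93b1, which carries nucleic acid-sensing Toll-like receptors to endosomes, fell from 11.96, 14.7 and 9.81 CPM to 6.03, 5.82 and 5.24 CPM (log2 fold change −1.10 ± 0.17, adjusted p = 0.0408). Cd22, a sialic acid-binding receptor of B cells and microglia, fell from 0.667, 1.05 and 0.619 CPM to 0.124, 0.136 and 0.0782 CPM (log2 fold change −2.79 ± 0.44, adjusted p = 0.0471), the treated values being at or under the 3-count floor. Mgst1, a microsomal glutathione transferase, fell from 16.7, 15.97 and 10.1 CPM to 5.16, 6.73 and 5.51 CPM (log2 fold change −1.29 ± 0.21, adjusted p = 0.0473). Prelp, a leucine-rich matrix proteoglycan, fell from 160.2, 168 and 115 CPM to 83.2, 74.3 and 58.1 CPM (log2 fold change −1.05 ± 0.17, adjusted p = 0.0486), and Chdh, choline dehydrogenase, from 6.004, 7.64 and 5.33 CPM to 2.61, 2.64 and 1.799 CPM (log2 fold change −1.44 ± 0.22, adjusted p = 0.0408).

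The closest treatment in the series was DZNep, an inhibitor of S-adenosylhomocysteine hydrolase that also lowers EZH2, given to rd10 mice whose retinas were collected at the same age. Its 2 libraries were compared with 4 controls of their own, in another library series. The change with UNC1999 less the change with DZNep was tested over 16799 genes in one fit of the 12 libraries. One gene passed (0.00595%), the immediate-early gene Egr1, and none passed in the other direction, although 2399 genes had an unadjusted p-value under 0.05. The agents and their doses differed, so list medians are given side by side. For rod activation genes the median log2 fold change was 1.03 with UNC1999 and 1.09 with DZNep, for visual cycle genes 1.40 and 0.54, for melanin genes 1.72 and 1.15, for activated microglia −1.64 and −0.90, for MHC class II −2.47 and −2.36, and for sterol genes 0.39 and 0.14. Taken gene by gene in the joint fit, the median differences of these lists were −0.11, 0.24, 0.44, −0.71, 0.06 and 0.20 in the same order. For visual cycle genes this is less than the medians side by side would give. No member of these lists passed the test of the difference. For the 4 RPE genes that passed in all fits with a library left out, the log2 fold changes with UNC1999 and DZNep were 2.09 and 2.01 for Rgr, 1.75 and 1.00 for Rdh5, 2.28 and 1.16 for Slc6a20a and 1.40 and 0.54 for Ttr. The edgeR adjusted p of the DZNep comparison was 0.00273, 0.0167, 0.0259 and 0.345 in the same order. Krt8 had 1.76 and 1.77 (adjusted p with DZNep = 0.00187) and Mfrp 1.89 and 1.85 (adjusted p with DZNep = 0.00880), a pair set beside DZNep after their values were seen.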

How the data were processed

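Per the authors, stranded poly(A) libraries were sequenced, BBDuk was used for trimming, HISAT2 2.2.1 for alignment to NCBIM37 (Ensembl 67) and reads were counted per gene with HTSeq 0.11.2; the strand setting of counting is not given in the sources used here. The deposited values are raw read counts of 37991 genes. Overlapping or near-identical genes may share reads.

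Genes were filtered with filterByExpr, scaled with TMM and tested with edgeR 4.0.16 (R 4.3.3) by the quasi-likelihood test, in place of the authors' likelihood ratio test, between the 3 control and 3 UNC1999 libraries. Replicates were checked not to be copies (chi-square per gene at least 7.43 for each pair). Symbols and positions are from GENCODE M1, and promoter sequences from RefSeq on GRCm38.p6, another build. A list's level is its mean log2 CPM (prior count 2). Standard errors include the spread between replicates, and the 3-count floor covers counting error only.

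The comparison and the 41 gene lists were chosen with earlier results of these data known. Genes named are the 15 called genes of smallest p-value per direction with groups apart, the 3 of smallest p-value and the 2 of highest level in each list, a panel of the study, and the 5 of smallest p-value per direction in the difference from DZNep, of which some are left out; others are said to be named after their values were seen. Some genes that these rules name are not reported here. On counts simulated from this comparison over 15609 tested genes, the test passed 91 of 100 genes changed by 2-fold and 99 of 100 changed by 4-fold, with 14 unchanged genes. Over 16556 genes simulated for the difference from DZNep it passed 90 and 97 of 100, with 8 unchanged genes. The changed genes were taken only from those with higher counts, and every gene was drawn independently. A shift shared by many genes of a library, as in control 3, was therefore absent. These shares need not hold for the real libraries, and few calls there do not show equal levels or equal effects.

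Alternatives tried were DESeq2 1.42.0, the likelihood ratio test, RLE scaling, no filter, at least 10 counts in every library, no fold threshold, a replicate block, all 22 retina libraries in one fit, and leaving out each library.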

Additional observations from a re-analysis of the deposited data

Results flagged for a closer look

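Egr1, an immediate-early transcription factor that neuronal activity and growth factors induce, was the gene whose response differed between UNC1999 and DZNep by a test of the difference itself. In a joint scaling of the 12 libraries, Egr1 had 145, 144 and 121 CPM in the UNC1999 experiment's controls and 120, 126 and 144 CPM with UNC1999. It had 151, 143, 141 and 194 CPM in the DZNep experiment's controls and 46.3 and 45.4 CPM with DZNep. The log2 fold change was −0.07 with UNC1999 and −1.78 with DZNep, and the difference was 1.71 ± 0.17 (edgeR quasi-likelihood test, adjusted p = 0.00605). The drop was thus in both DZNep libraries and in no UNC1999 library. Over the alternatives the difference ran from 1.60 to 1.76 and its adjusted p from 4.77e-18 to 0.133, above 0.05 with either DZNep library left out. The 2 experiments also differ in library series and dosing, which cannot be told apart from the agent.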

How the results depend on the processing

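The number of calls depended on the test. Against 47 higher and 11 lower genes, the likelihood ratio test called 174 and 295, DESeq2 131 and 221, the fit without a filter 128 and 214 and the fit of all 22 retinas 159 and 278, so that lower genes outnumbered higher ones there. The likelihood ratio counts are those of the fit made here. With that test and the same thresholds the study reports larger counts in both directions. Without the fold threshold 79 genes were higher. RLE scaling (49 and 14) and at least 10 counts in every library (47 and 16) changed little. With a library left out, between 4 and 286 genes were called higher and between 0 and 520 lower, the upper ends without control 3, and genes with groups apart from 2486 to 3983 and from 2519 to 4015, fewer libraries making separation easier. At 0 lower genes, the fits without UNC1999 replicate 2 or 3 or control 1 or 2 still had 2239 or more genes at an unadjusted p-value under 0.05.

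For UNC1999 less DZNep, against 1 and 0 genes, the likelihood ratio test called 30 and 27, DESeq2 24 and 17 and the fit without a filter 3 above; left-out libraries gave 0 to 80 above and 0 to 83 below, the upper ends again without control 3.

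The same replicate number did not pair the libraries (correlations of deviations −0.279, 0.230 and −0.0419). With the replicate block 15 genes were called higher and 6 lower.

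List medians kept within the larger group's SD in all but 19 of 520 recomputed values. With at least 10 counts in every library the oligodendrocyte median was 0.20 and the MHC class II median −1.65. With libraries left out, medians ran from 1.10 to 1.29 for RPE channels, 0.15 to 0.47 for ciliary body, −0.0901 to 0.0806 for endothelium, 0.36 to 0.93 for oligodendrocytes, 0.0421 to 0.150 for PRC2 genes, −0.0731 to 0.0682 for collagens and −0.136 to 0.0703 for the stress response. Among named genes the log2 fold change turned in Col1a2, which ran from −0.46 (without control 3) to 0.10 (without control 2), and in Glul, which ran from −0.0874 (without UNC1999 replicate 1) to 0.72 (without control 3). The cause was not tested for any of these. Levels at or under 0.109 CPM rest on 3 counts or fewer in every library.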

Other observations

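Several genes outside the lists, named after their values were seen, passed with values that separate the groups widely. Pltp, a phospholipid transfer protein, rose from 15.1, 15.3 and 20.05 CPM to 42.8, 33.6 and 33.4 CPM (edgeR quasi-likelihood adjusted p = 0.0273). Scd1, a fatty acid desaturase, rose from 13.2, 13.6 and 15.3 CPM to 21.9, 24.3 and 24.3 CPM (adjusted p = 0.0263). Gja1, the gap junction protein connexin 43, abundant in the RPE and in astrocytes, rose from 12.9, 11.6 and 9.48 CPM to 21.3, 23.5 and 26.5 CPM (adjusted p = 0.0263), and Wls, which Wnt ligands need for secretion, from 8.26, 8.66 and 7.57 CPM to 16.8, 14.7 and 13.5 CPM (adjusted p = 0.0308).

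Tspan10, a tetraspanin of pigment cells, rose from 1.95, 1.02 and 1.76 CPM to 7.14, 4.73 and 4.54 CPM (adjusted p = 0.0496). Upk3b, a uroplakin of epithelia and mesothelia, rose from 0.154, 0.145 and 0.143 CPM to 0.745, 0.773 and 0.821 CPM (log2 fold change 2.37 ± 0.33, adjusted p = 0.0308), its control values lying at or near the 3-count floor. Among genes that neurons of the retina also make, Dmd, dystrophin, rose from 97.8, 95.3 and 131 CPM to 187, 183 and 176 CPM (adjusted p = 0.0471) and Slco4a1, an organic anion transporter, from 102, 82.9 and 113 CPM to 179.7, 159.6 and 158 CPM (adjusted p = 0.0433).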
